A study of Rattus norvegicus with 12 samples.

Results

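The set comprised 10 genes that neutrophil precursors of the bone marrow express while they build their granules: Mpo, Elane, Prtn3, Ctsg, Ngp, Ltf, Camp, Fcnb, Lcn2 and Cebpe. Members were the probes whose gene name on the array equalled one of these symbols, with the brightest probe used where a gene had more than 1. All 10 were on the array, and 9 of them were among the 22990 genes that passed a filter on dim probes. The exception was Ltf, whose probe was well above background on 0 of 12 arrays. The other 9 were well above background on all 12, so none of them entered through a single group.

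RNA came from calvaria, the flat bone of the skull vault, of rats aged 10 weeks, taken 6 h after surgery, and was measured on 12 one-colour Agilent arrays from 200 ng of total RNA each. In 4 laser samples an Er:YAG laser had ablated a defect of 8 by 3 mm, in 4 bur samples a bur had drilled a defect of that area, and in 4 control samples the periosteum had been stripped and the bone left whole. All groups thus shared the removal of the periosteum. Strain, sex, the number of animals and whether the bone pieces held marrow are not given in the labels, and the p-values therefore reflect only how much these samples differ from each other.

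Neutrophils make their granules in stages. Promyelocytes fill the primary, or azurophil, granules with myeloperoxidase and serine proteases, and myelocytes and metamyelocytes then make the proteins of secondary and gelatinase granules. Transcription of these genes largely stops as the cell matures, so blood neutrophils hold the proteins but little of the mRNA. In bone the transcripts are mainly those of marrow precursors, apart from Lcn2, which many other cells also make. C/EBP epsilon, the product of Cebpe, is the transcription factor that later precursors need to make secondary granules.

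The transcripts of these genes were lower after both kinds of surgery. In laser-ablated bone 8 of the 9 measured members fell and 0 rose, against 17.6% of all genes called lower and 32.2% called higher. In bur-drilled bone 8 of 9 fell and 0 rose, against 18.3% lower and 32.7% higher. For the 8 that fell, all 4 treated arrays lay below all 4 control arrays in each comparison, which held for 17.7% of all genes after laser and 15.6% after bur drilling. The same 8 genes fell in both, by 2.47-fold (Fcnb) to 7.23-fold (Elane) after laser and by 3.20-fold (Fcnb) to 10.1-fold (Elane) after bur drilling. Camp was the ninth, with values below control that did not pass the test on the probe used. The median log2 difference of the 9 members was -1.99 for laser and -2.14 for bur, where the median of all genes was 0.21 and 0.23. In the laser comparison 7 of the 9 lay among the lowest 5% of all genes, and in the bur comparison 8 of the 9. The comparisons share the 4 control arrays. No member was called between laser and bur. With slide as a random block 7 of 9 were called lower in each comparison with control, Ctsg being the one that lost its call. The control arrays had a slide to themselves, so this block cannot remove a difference between that slide and the treated ones.

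Calls are from limma, fitted over all 22990 genes with Benjamini-Hochberg adjustment and a threshold of 0.05. Levels are log2 signals relative to the 75th percentile of the same array, so a level of 0 equals that percentile, and the level of a probe can be compared between arrays but not with that of another probe. In bulk bone, fewer cells of a type and less RNA per cell cannot be told apart. Between 67.8% and 73.7% of spots were well above background, and 0 were saturated. Per the file headers the control group had a slide to itself, while laser and bur shared 2 slides, and spike-in spots were 3.21 log2 units brighter on the treated arrays before scaling. Against control, treatment and slide therefore cannot be told apart. Higher calls were 64.7% of all calls for laser and 64.2% for bur, and 58.0% and 51.5% when arrays were scaled on their median. The 9 members were lower than control in all 27 other settings tried, for laser and for bur.

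**Figure D1:**
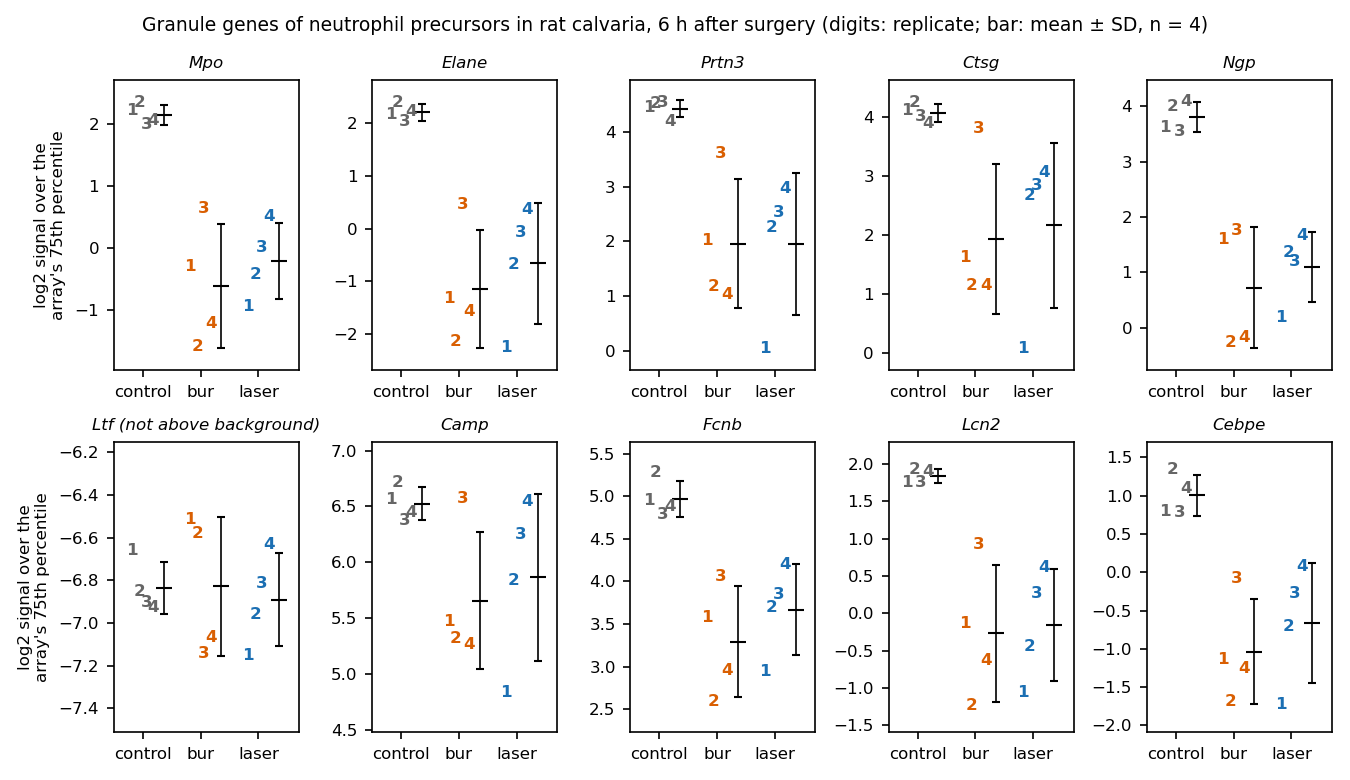
Log2 signal over the 75th percentile of each array (y axis) for the 10 genes in control, bur and laser samples (x axis); digits are replicate numbers and bars show the mean ± SD of 4 arrays. For 8 genes every treated array lies below every control array, Camp overlaps, and Ltf, near -6.8 in all groups, is not above background.

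Mpo encodes myeloperoxidase, the haem enzyme of azurophil granules that makes hypochlorous acid. Its probe lies at chr10:76094059-76094118 of the rat build RGSCv3.4, the build of all probe positions here. Control arrays gave 2.21, 2.35, 1.98 and 2.05 (mean 2.15 ± 0.16, SD, n = 4). Laser arrays gave -0.94, -0.42, 0.00 and 0.50 (mean -0.22 ± 0.61, SD, n = 4). Bur arrays gave -0.31, -1.58, 0.64 and -1.21 (mean -0.61 ± 0.995, SD, n = 4). The highest treated array, bur replicate 3, stayed well under the lowest control array. Mpo was 5.14-fold lower after laser (log2 -2.36, SE 0.44, limma adjusted p = 0.00172) and 6.78-fold lower after bur drilling (log2 -2.76, adjusted p = 0.000798).

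The 3 serine proteases of azurophil granules followed Mpo. Elane encodes neutrophil elastase and had the largest difference of the members in both comparisons; its probe lies at chr7:11330273-11330751. Elane read 2.16, 2.39, 2.02 and 2.21 in control, -2.25, -0.68, -0.08 and 0.37 in laser, and -1.33, -2.14, 0.45 and -1.56 in bur replicates 1 to 4. Treated arrays again lay wholly below control, with laser replicate 1 and bur replicate 2 the lowest. The log2 difference was -2.85 (SE 0.60, limma adjusted p = 0.00299) for laser and -3.34 (adjusted p = 0.00137) for bur.

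Prtn3, proteinase 3, is the neighbour of Elane on chromosome 7 (probe at chr7:11334729-11334788). Its control arrays read 4.45, 4.52, 4.55 and 4.20, its laser arrays 0.05, 2.25, 2.53 and 2.96, and its bur arrays 2.02, 1.17, 3.61 and 1.03. Laser replicate 1 was far below the other laser arrays, and no treated array reached the control range. Prtn3 was 5.58-fold lower after laser (log2 -2.48, SE 0.66, limma adjusted p = 0.00982) and 5.55-fold lower after bur drilling (adjusted p = 0.00988). Without laser replicate 1 the laser difference was 3.60-fold (adjusted p = 0.0187).

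Ctsg, cathepsin G (probe at chr15:34622339-34622398), gave the least certain of the calls. Control arrays read 4.12, 4.25, 4.0 and 3.89, laser arrays 0.08, 2.67, 2.84 and 3.07, and bur arrays 1.62, 1.14, 3.80 and 1.15. Bur replicate 3 came close to the lowest control array but did not overlap it. The fall was 3.74-fold for laser (log2 -1.90, SE 0.70, limma adjusted p = 0.0426) and 4.40-fold for bur (log2 -2.14, adjusted p = 0.0261). Without laser replicate 1 the laser value was -1.21 (adjusted p = 0.100), and without bur replicate 3 the bur value was -2.76 (adjusted p = 0.00429). The laser call was also lost on leaving out any control array, laser replicate 2 or bur replicate 1, and the bur call on leaving out bur replicate 1, 2 or 4 or control replicate 2. With slide as a random block neither was called (limma adjusted p = 0.0887 for laser and 0.0600 for bur).

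Of the genes of later granules Ngp, Fcnb and Lcn2 were called lower, Camp was not, and Ltf could not be measured. Ngp, neutrophilic granule protein, is a cystatin-like protein of secondary granules (probe at chr8:114798288-114798347). It read 3.62, 4.0, 3.55 and 4.08 in control, 0.19, 1.36, 1.19 and 1.66 in laser, and 1.59, -0.27, 1.75 and -0.19 in bur. The bur arrays fell apart into a higher pair, replicates 1 and 3, and a lower pair, and all stayed far below control. Ngp was 6.56-fold lower after laser (log2 -2.71, SE 0.48, limma adjusted p = 0.00134) and 8.52-fold lower after bur drilling (log2 -3.09, adjusted p = 0.000721).

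Camp encodes the cathelicidin antimicrobial peptide of secondary granules and was the member that did not pass, on its brighter probe at chr8:114214987-114215046. Control arrays read 6.56, 6.72, 6.38 and 6.45, laser arrays 4.84, 5.83, 6.25 and 6.55, and bur arrays 5.47, 5.32, 6.57 and 5.26. In each treated group 3 of 4 arrays lay below all control arrays, while laser replicate 4 and bur replicate 3 fell inside the control range. The log2 difference was -0.66 for laser (95% interval -1.47 to 0.16, limma adjusted p = 0.157) and -0.87 for bur (-1.68 to -0.05, adjusted p = 0.0699). A further Camp probe, designed on a cDNA clone at chr8:114216548-114216607 and with its coordinates in the opposite order, read -0.26, -0.26, -0.79 and -0.89 in control against -3.22, -2.18, -1.38 and -1.31 in laser and -2.23, -2.69, -1.26 and -2.07 in bur. That probe was lower without overlap, by 2.78-fold for laser (limma adjusted p = 0.0142) and 2.85-fold for bur (adjusted p = 0.0123). Its strand and target were not settled, so it is not taken as a second reading of Camp. In the authors' deposited table the brighter probe was at log2 -1.02 for laser (adjusted p = 0.0271) and -1.13 for bur (adjusted p = 0.0179).

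Fcnb encodes ficolin B, a lectin that binds sugars on microbes and is stored in neutrophil granules (probe at chr3:7011238-7011297). Control arrays read 4.95, 5.27, 4.79 and 4.88, laser arrays 2.95, 3.69, 3.85 and 4.20, and bur arrays 3.58, 2.59, 4.06 and 2.95. Its log2 difference was -1.30 for laser (SE 0.33, limma adjusted p = 0.00795) and -1.68 for bur (adjusted p = 0.00218), the smallest among the members called, with no overlap.

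Lcn2, lipocalin 2, binds the iron carriers of bacteria and is both a secondary granule protein and an acute phase gene of many other cells (probe at chr3:11511592-11511651). It read 1.75, 1.93, 1.76 and 1.91 in control, -1.06, -0.44, 0.27 and 0.61 in laser, and -0.14, -1.23, 0.93 and -0.63 in bur. Every treated array lay below control, and Lcn2 fell 3.97-fold after laser (log2 -1.99, SE 0.44, limma adjusted p = 0.00415) and 4.30-fold after bur drilling (adjusted p = 0.00312). Its direction was thus that of the granule genes. Of 10 measured cytokine and acute phase genes that are known to be induced together with Lcn2 in inflammation, 3 were higher and 2 lower after laser, and 4 higher and 2 lower after bur drilling (medians 0.46 and 0.53). These shares lie near those of all genes, given above (32.2% and 32.7% higher, 17.6% and 18.3% lower), so they set the list apart in neither direction. The higher ones in both were Il6 (1.60 and 1.60), Cxcl2, a chemokine that draws neutrophils (1.53 and 1.53), and Il1b (1.45 and 1.34), and after bur drilling also Cxcl1 (1.27). C3, complement component 3, and Hp, haptoglobin, which is also a neutrophil granule protein, were the lower ones (laser -1.40 and -1.35).

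Cebpe itself (probe at chr15:32788045-32788104) read 0.80, 1.34, 0.78 and 1.1 in control, -1.73, -0.71, -0.27 and 0.08 in laser, and -1.13, -1.68, -0.08 and -1.26 in bur. The transcription factor was 3.16-fold lower after laser (log2 -1.66, SE 0.40, limma adjusted p = 0.00658) and 4.12-fold lower after bur drilling (log2 -2.04, adjusted p = 0.00229), again without overlap. Ltf, lactoferrin of secondary granules (probe at chr8:115438446-115438505), was not well above background on any array. Its readings, between -7.15 and -6.51, give no level to compare.

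**Figure D2:**
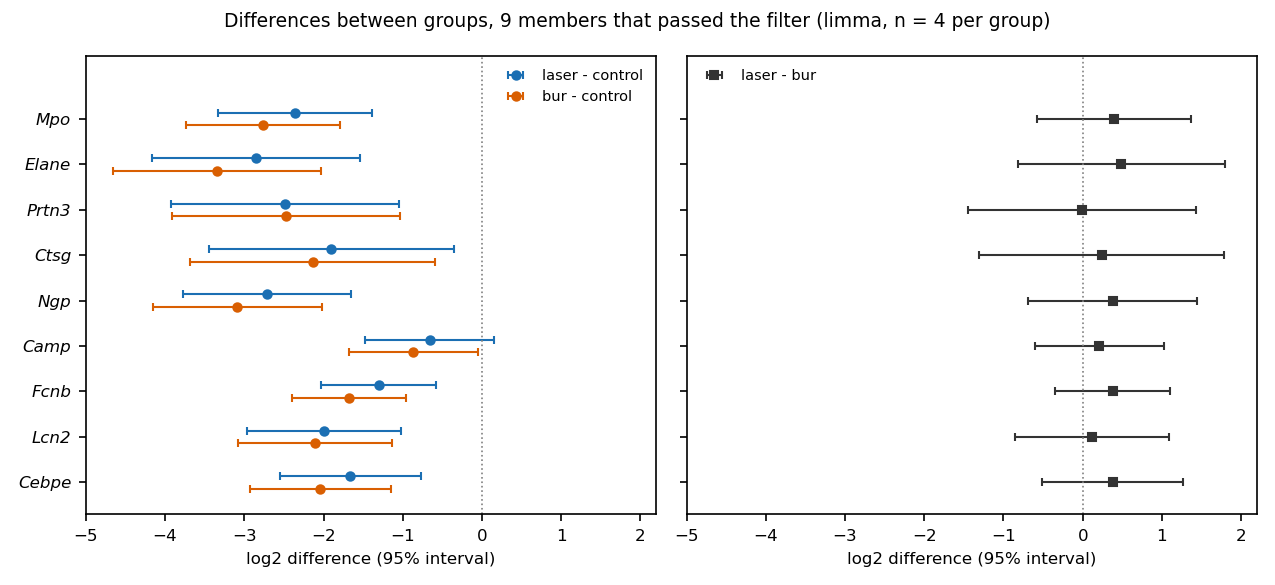
Log2 differences (x axis) with 95% intervals from limma for the 9 members that passed the filter (rows), laser and bur against control on the left and laser against bur on the right. On the left the intervals of 8 members lie below 0 in both comparisons and that of Camp reaches 0.16 for laser; on the right all 9 intervals span 0.

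Against the spread of all genes the members' falls stood at the low end. Elane lay at the 0.570th percentile of the 22990 laser differences and the 0.148th of the bur differences, Ngp at the 0.779th and 0.265th, and Mpo at the 1.55th and 0.622nd. Fcnb, the smallest of the called falls, lay at the 7.37th and 4.33rd percentile, and Camp at the 17.5th and 12.8th.

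**Figure D3:**
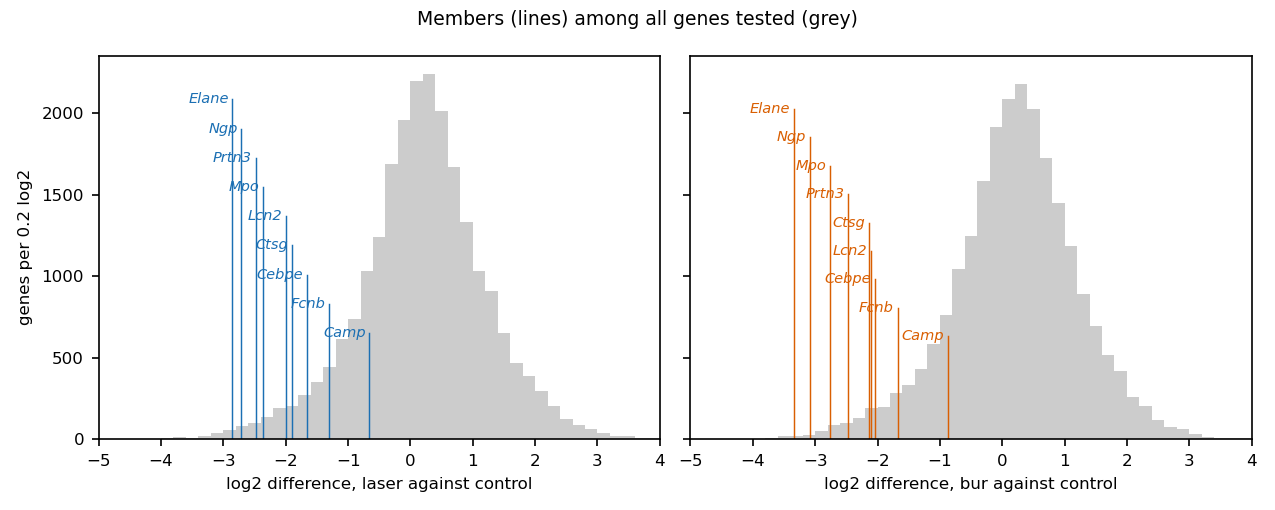
Histogram of log2 differences of all genes tested (grey, x axis; genes per bin of 0.2 log2, y axis) for laser and bur against control, with a labelled line at each member. All 9 members lie to the left of the median of all genes (0.21 and 0.23), and Elane lies farthest left in both.

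Because C/EBP factors and PU.1 are known to drive several of these genes, their promoters are shown with matches to short forms of the motifs. Sequences are the 250 bases before the gene start in RefSeq's GRCr8 annotation, which held 9 of the 10 members, all but Elane. The C/EBP letters TTNNGNAA were found on either strand in 5 of the 9 (Mpo, Ngp, Fcnb, Lcn2 and Cebpe), against 36.8% of 27457 promoters. The PU.1 letters GAGGAA were found in 4 (Mpo, Prtn3, Ctsg and Cebpe), against 23.2%, the RUNX letters TGTGGT in 1 (Ctsg), against 14.1%, and TATAAA on the sense strand in 0, against 8.40%. In Cebpe a pair of C/EBP matches overlap. Ngp held 4 C/EBP matches, at 179, 143, 90 and 52 bases before the start. Mpo held 1 C/EBP match, at 61, and 1 PU.1 match, at 135, and Fcnb held 2 C/EBP matches, at 218 and 106. Prtn3 and Ctsg, which fell by 2.48 and by 1.90 after laser, held no C/EBP match, and neither did Camp or Ltf. The 4 promoters shown include the one with the most C/EBP matches (Ngp) and one without any (Camp), and are not ordered by that count. A match is a description of the letters and no evidence of binding. Capitals mark the matches on either strand, each sequence reads 5′ to 3′ along its gene, and the windows are chr8:119272355-119272604 (plus strand), chr10:73092152-73092401 (plus), chr3:31800189-31800438 (minus) and chr8:118721999-118722248 (minus) of GRCr8.
Ngp: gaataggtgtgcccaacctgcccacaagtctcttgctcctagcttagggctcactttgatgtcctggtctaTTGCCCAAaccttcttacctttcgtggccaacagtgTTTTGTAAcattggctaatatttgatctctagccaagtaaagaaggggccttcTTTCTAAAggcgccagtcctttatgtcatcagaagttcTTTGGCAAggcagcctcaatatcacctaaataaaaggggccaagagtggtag
Mpo: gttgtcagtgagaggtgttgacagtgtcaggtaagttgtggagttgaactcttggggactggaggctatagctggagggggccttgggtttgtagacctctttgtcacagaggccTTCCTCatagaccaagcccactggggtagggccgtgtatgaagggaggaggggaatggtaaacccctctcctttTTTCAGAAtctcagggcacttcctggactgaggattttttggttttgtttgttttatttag
Fcnb: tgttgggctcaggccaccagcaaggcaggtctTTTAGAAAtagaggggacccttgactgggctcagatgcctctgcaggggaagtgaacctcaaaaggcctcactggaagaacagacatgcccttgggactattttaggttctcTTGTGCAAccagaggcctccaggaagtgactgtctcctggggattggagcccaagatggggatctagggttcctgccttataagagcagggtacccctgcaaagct
Camp: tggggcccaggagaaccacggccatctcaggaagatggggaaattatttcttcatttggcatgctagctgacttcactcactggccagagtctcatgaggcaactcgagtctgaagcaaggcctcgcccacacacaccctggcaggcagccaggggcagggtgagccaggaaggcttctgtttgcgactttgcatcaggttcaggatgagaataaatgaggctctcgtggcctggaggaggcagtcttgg

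The comparison of laser with bur asks whether the way of cutting the bone mattered. For the granule genes no difference was called, against 0.00435% of all genes (1 gene) called higher in laser and 0% lower, and the intervals leave room for sizeable differences either way. Estimates were above 0, so higher in laser, for 8 of 9 members, with a median log2 difference of 0.38 (all genes 0.01). Elane had the largest, 0.49 (95% interval -0.82 to 1.80, limma adjusted p = 0.953), followed by Mpo at 0.40 (-0.57 to 1.37), Cebpe at 0.38 (-0.51 to 1.27) and Ngp at 0.38 (-0.69 to 1.44). Prtn3 was at -0.01 (-1.45 to 1.43), and the smallest adjusted p of the 9 was 0.914, for Fcnb (0.38, -0.35 to 1.1). Laser and bur arrays overlapped for every member; all laser arrays lay below all bur arrays for 1.44% of genes and above them for 2.04%. The count above 0 was 5 of 9 on slide 1 and 9 of 9 on slide 2, 5 of 9 without laser replicate 4 and 6 of 9 without bur replicate 2 or 4.

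Within a treated group the members moved together from array to array. For 9 of 9 members laser replicate 1 gave the lowest laser reading and laser replicate 4 the highest. Among bur arrays replicate 3 was the highest for 9 of 9, and replicate 2 the lowest for 7 and replicate 4 for 2. Averaged over the members, the log2 difference from the control mean was -3.21, -1.94, -1.60 and -1.22 on laser replicates 1 to 4 and -2.18, -3.08, -1.03 and -2.83 on bur replicates 1 to 4. On the control arrays it stayed between -0.13 and 0.20. The SD of a member among control arrays was 0.10 to 0.27 (median over all genes 0.23), but 0.53 to 1.40 among laser arrays (all genes 0.29) and 0.62 to 1.27 among bur arrays (all genes 0.32). The members thus varied more among treated than among control samples.

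Slide means of the treated arrays differed as well. Treated replicates 1 and 2 lay on slide 1 and replicates 3 and 4 on slide 2, so each slide held only 2 arrays of a treated group. The slide 2 mean was higher for 9 of 9 members in laser (by 0.65 to 1.61) and in bur (by 0.12 to 1.18). In bur this rested largely on replicate 3. Bur replicate 4, also on slide 2, read below bur replicate 1 of slide 1 for every member (average difference from control -2.83 and -2.18). Taken slide by slide, the median difference of the members from control was -2.69 for laser and -2.69 for bur on slide 1, and -1.40 and -1.69 on slide 2. With slide 1 alone all 9 members were called lower in both comparisons. With slide 2 alone 5 of 9 were called for laser and 7 of 9 for bur. The laser values that lost their call there were Prtn3 at -1.68 (limma adjusted p = 0.0718), Ctsg at -1.11 (adjusted p = 0.202) and Fcnb at -0.95 (adjusted p = 0.0525), and for bur Ctsg at -1.59 (adjusted p = 0.0857). Elane fell 12.6-fold with slide 1 alone and 4.14-fold with slide 2 alone after laser, and 15.2-fold and 6.75-fold after bur drilling. Lcn2 after laser fell 6.01-fold and 2.63-fold. The part of slide in these values was not tested beyond this.

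**Figure D4:**
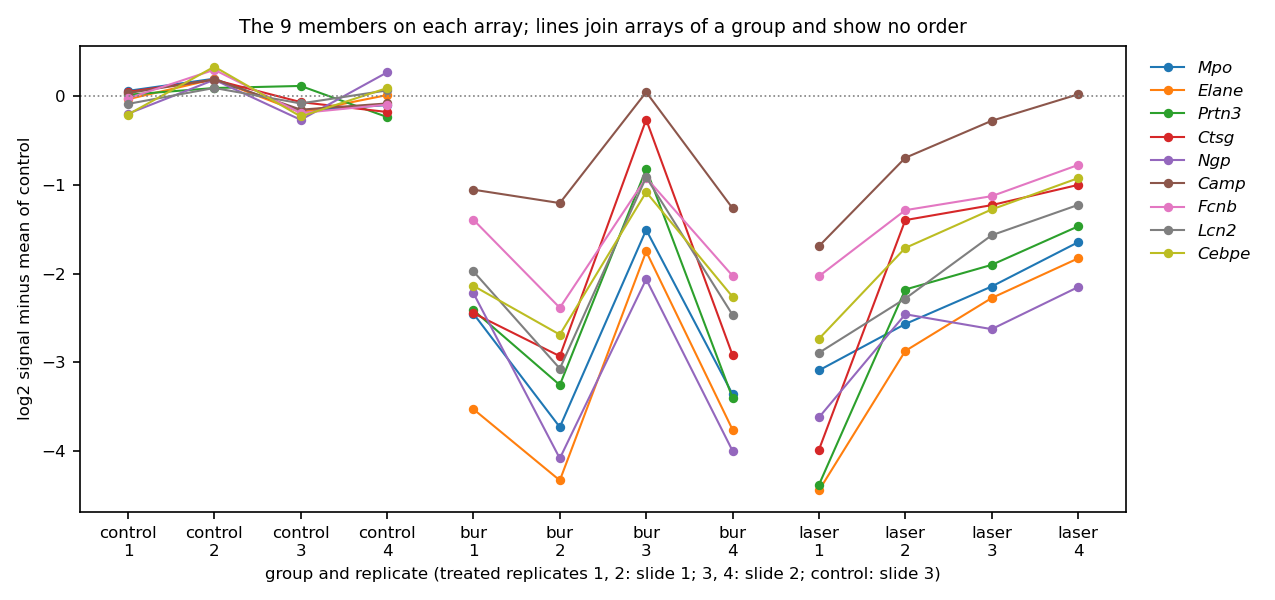
Log2 signal of the 9 members minus their control mean (y axis) on each of the 12 arrays (x axis); lines join arrays of a group and carry no order. Control arrays stay within 0.34 of 0, laser replicate 1 lies lowest and laser replicate 4 highest among laser arrays, and bur replicate 3 lies highest among bur arrays.

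Other genes of neutrophil granules and secretory vesicles fell with the members. Of 20 measured, 1, Prss57, passed the filter on dim probes only through the control arrays and is left out of the counts. Of the other 19, 14 were lower and 1 higher after laser (median -1.49) and 15 lower and 0 higher after bur drilling (median -1.70). Mmp8, neutrophil collagenase, fell by 2.11 on the log2 scale after laser and by 2.93 after bur drilling. Cd177, a surface glycoprotein of neutrophils, fell by 2.42 and by 2.71, and Mmp25, a membrane-bound metalloproteinase, by 1.49 and by 1.30. Chit1, chitotriosidase, fell by 1.86 and by 2.10, and Cybb, the large subunit of the NADPH oxidase, by 1.33 and by 1.95. Prss57, a serine protease of azurophil granules, was well above background on 4 of 4 control arrays and on 0 of 8 treated arrays, and was at least 2.64-fold lower after laser and at least 1.83-fold lower after bur drilling. These bounds set the control mean against, per treated array, the higher of the probe's signal and the dimmest signal well above background. The 4 genes not called after bur drilling were Lyz2, S100a8, S100a9 and Cyba, a choice made after their values were seen. S100a8 and S100a9, the calgranulins that mature neutrophils also hold in large amounts, read -0.27 (limma adjusted p = 0.472) and -0.49 (adjusted p = 0.220) after laser and -0.41 and -0.62 after bur drilling. Lyz2, a lysozyme shared with macrophages, was the 1 gene that rose after laser (0.64, adjusted p = 0.0128).

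Regulators of granulocyte development were mixed. Of 13 measured transcription factors and growth factor receptors, 5 were lower and 1 higher after laser (median -0.74) and 6 lower and 1 higher after bur drilling (median -0.40). Irf8, a factor of monocyte fate, fell by 1.24 and by 1.33, and Spi1, which encodes PU.1, by 1.06 and by 1.15. Gfi1, a repressor needed for neutrophil formation, fell by 1.75 after bur drilling, and its laser value was -1.03 (limma adjusted p = 0.0632). Kit, the stem cell factor receptor, fell by 1.17 after laser, with a bur value of -0.38 (adjusted p = 0.412). The bur to laser differences of Gfi1 and Kit were not called. Cebpb, the C/EBP factor of emergency granulopoiesis, was the gene that rose in both, by 0.64 and 0.84.

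Genes that process or pack granule proteins showed no common direction: of 8, 3 were lower and 2 higher after laser and 3 lower and 1 higher after bur drilling (medians 0.10 and -0.05). Srgn, serglycin, the proteoglycan that holds proteases in the granule, fell by 1.14 and by 1.48, while Ctsc, the protease that activates the serine proteases, rose by 0.56 and 0.44. Jagn1, an endoplasmic reticulum protein that neutrophils need, rose by 0.51 after laser, and Vps45, a trafficking protein, fell by 0.58 and by 0.72. A list of inhibitors of neutrophil serine proteases was drawn from protease inhibitor families, and the target of each gene was not checked. Of 7 measured, 1, Serpina1, or antitrypsin, passed the filter only through treated arrays and is left out of the counts. Serpina1 was well above background on 0 of 4 control arrays and on 2 of 4 arrays in each treated group, and its laser arrays overlapped control. Of the other 6, 1 was higher and 0 lower after laser and 1 higher and 1 lower after bur drilling (medians 0.56 and 0.67), shares that lie at or under those of all genes. Wfdc1 rose by 1.27 and 1.35, and Serpinb1a, an inhibitor of elastase and cathepsin G within neutrophils, fell by 1.28 after bur drilling.

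Markers of other marrow and blood cells were lower beside the members. Of 13 measured mature neutrophil markers, 7 were lower after laser and 6 after bur drilling, with 0 higher (medians -0.83 and -0.66). Of these, 6 also stand on the list of granule genes. Among the 7 that do not, 3 were lower after laser and 2 after bur drilling. Padi4, the histone-citrullinating enzyme, fell by 1.57 and by 1.58, and Cxcr2, a chemokine receptor, fell by 1.09 after laser. Fpr1 and Il1r2 read -0.02 and 0.19 after laser and were not called. The mean level of the 13 markers ranged from 2.23 to 2.43 on control arrays, from 0.96 to 1.79 on laser arrays and from 0.80 to 1.84 on bur arrays.

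The erythroid list was lower by the widest margin of those examined, with 11 of 12 markers called in each comparison (medians -2.70 and -2.79). Its mean level was 3.63 to 4.50 in control, -1.53 to 2.40 in laser and 0.40 to 2.74 in bur. Of 8 platelet and megakaryocyte markers, without 1 that passed the filter only through control arrays, 7 fell in each comparison (medians -2.24 and -2.40), and all 9 measured had mean levels of 1.05 to 1.53 in control, -2.68 to -0.10 in laser and -1.76 to 0.39 in bur. All 16 proliferation genes fell in both (medians -1.88 and -2.01). B cell markers had 6 and 5 of 10 lower (medians -1.60 and -1.35), T and NK cell markers, without 2 that passed the filter only through control arrays, 6 and 5 of 9 (medians -1.07 and -1.03), and eosinophil, basophil and mast cell markers 4 and 8 of 11 (medians -1.02 and -1.48). Monocyte and macrophage markers had 6 lower and 1 higher of 13 after laser and 5 lower after bur drilling (medians -0.41 and -0.31), with mean levels of 2.18 to 2.48 in control, 1.93 to 2.08 in laser and 1.61 to 2.22 in bur. Markers of osteoblasts and osteocytes mostly went the other way. Of 13, 12 were higher and 1 lower after laser, and 11 higher and 0 lower after bur drilling (medians 1.26 and 1.05). Bglap, osteocalcin, and Col1a1 were well above background on all 12 arrays. Laser replicate 1, where granule genes read lowest among laser samples, also had the lowest mean for the erythroid, platelet, B cell, T and NK cell and proliferation lists, and bur replicate 3 had the highest bur mean for the granule genes and for those lists. Eosinophil, basophil and mast cell markers, the other neutrophil granule genes and the granulocyte regulators had the same lowest and highest arrays as the granule genes in both treated groups. Mature neutrophil markers differed only in the highest bur array, which was replicate 1. For the erythroid, platelet, B cell, T and NK cell and proliferation lists the other extremes did not all match. Array means of the other neutrophil granule, the platelet and the T and NK cell lists include the genes left out of the counts. The highest laser array was replicate 4 for the granule genes and for T and NK cell markers, replicate 2 for erythroid and platelet markers and replicate 3 for B cell markers and proliferation genes. The lowest bur mean was on replicate 2 for platelet markers as for the granule genes, on replicate 1 for erythroid markers and proliferation genes and on replicate 4 for B cell and for T and NK cell markers. The part of these cell types in the fall of the granule genes was not tested.

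**Figure D5:**
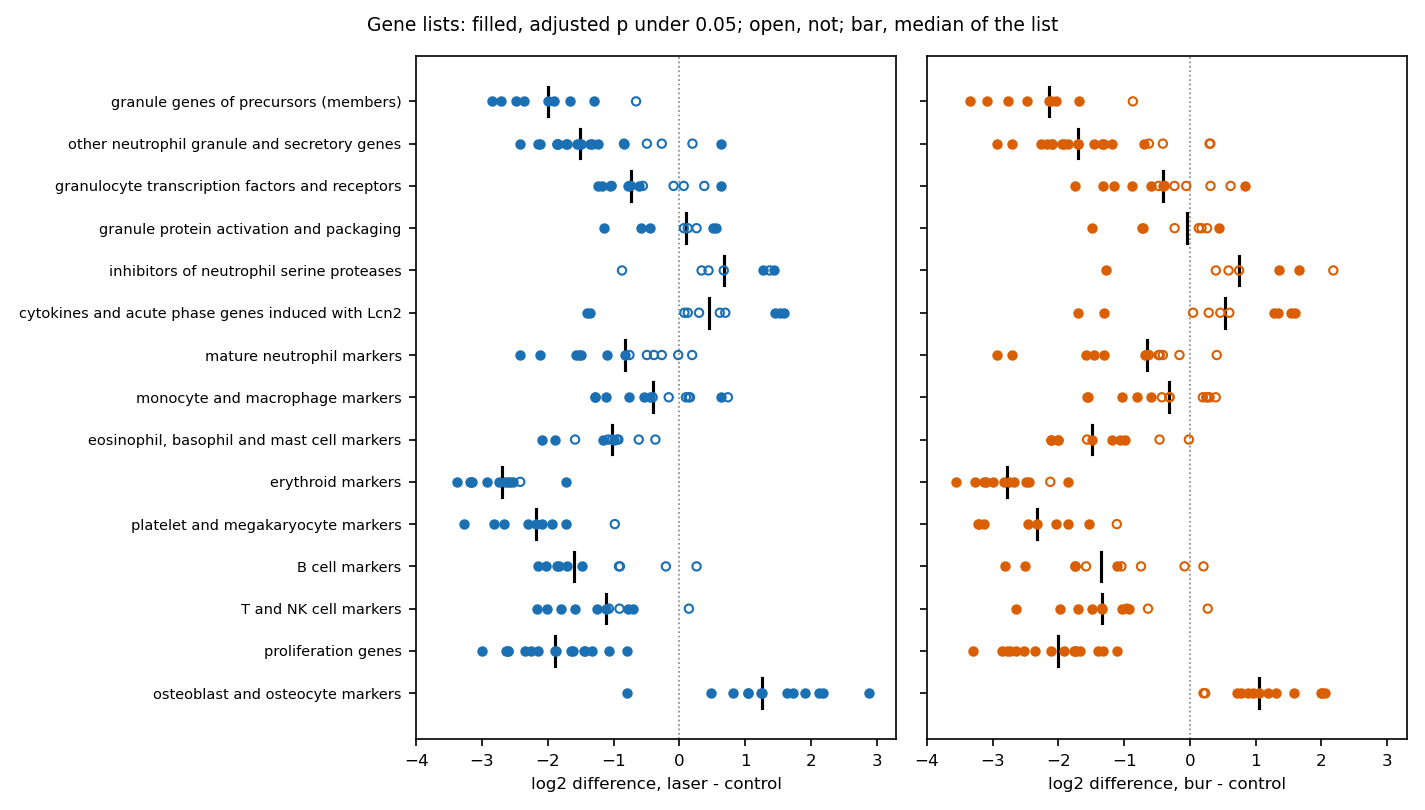
Log2 differences (x axis) of single genes, laser (left) and bur (right) against control, by gene list (rows). Filled points passed limma at an adjusted p under 0.05, open points did not, and bars are list medians. Points and bars include the genes left out of the counts in the text, so the bars of those lists differ from the medians given there. The granule genes (medians -1.99 and -2.14) lie with the erythroid, platelet and proliferation lists on the left, while osteoblast and osteocyte markers (1.26 and 1.05) lie on the right.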

How the data were processed

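RNA of 12 calvarial samples was measured on one-colour Agilent arrays, grouped by sample title (4 laser, 4 bur, 4 control). Per the file headers, the deposited spot intensity values came from Agilent Feature Extraction 11.0.1.1, background already subtracted. The authors also deposited log2 quantile-normalized values and tables of log2 fold changes with p-values and adjusted p-values; no model for them is stated in the labels or headers.

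The processed signal was log2 transformed. Control spots and outlier-marked spots were left out, spots of a probe averaged (45598 probes) and each array's 75th percentile subtracted, which hides any change shared by most genes. Probes well above background on at least 4 of 12 arrays were kept (30134), 1 per gene. Names came from RefSeq's GRCr8 table by accession for 46.5% of probes and from the files otherwise. limma 3.58.1 (R 4.3.3, lmFit and eBayes, a mean per group, 12 arrays) gave two-sided p-values, Benjamini-Hochberg adjusted over 22990 genes. The fit was run on simulated data with independent noise per gene and array and no slide effect. That run does not cover the slide or members that move together. Alternatives varied scaling, background correction, filter, probe choice, samples, blocks and weights. Members and lists were chosen with earlier results of these data known. Beside the members, genes named were mostly those with the smallest adjusted p in a comparison, up to 4 per list. Mature neutrophil markers were named from those not on the granule list. Some genes, such as Il1b, Cxcl1, Bglap and Col1a1, were named outside that rule. Genes named for not being called were picked after their values were seen. The values of 1 list gene are not reported here, while counts include it. Array numbers limit the precision.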

Additional observations from a re-analysis of the deposited data

Results flagged for a closer look

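Among the 30 groups of 4 arrays examined (10 genes, 3 groups each), 2 held an array set far apart from the rest, and chance sets apart about 1 in 20 such groups. Ctsg on laser replicate 1 read 0.0794 on the log2 scale, the lowest laser array, where the other laser arrays read 2.67 to 3.07. Camp on bur replicate 3 read 6.57, the highest bur array, where the other bur arrays read 5.26 to 5.47.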

How the results depend on the processing

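The 9 members lay below control in each of the 27 alternative settings for laser and for bur, and 0 of the called differences changed sign. The count of members called lower after laser was 8, and 5 with the treated arrays of slide 2 only; leaving out 1 array gave 7 to 8 for laser, 7 to 9 for bur and 0 to 0 for laser against bur. Camp was called in both comparisons under quantile normalization (-1.01 laser, -1.16 bur), in the authors' deposited normalized table (-1.02, -1.13), with the mean of its probes (-1.07, -1.19) and with slide 1 only (-1.19, -1.13). For bur it was also called with only the 2 groups in the fit and with array weights (-0.95). It was likewise called for bur without laser replicate 1 and without bur replicate 3 (-1.17). The mean of the Camp probes includes the dimmer probe, whose target was not settled. Ctsg lost its call with slide as a random block (limma adjusted p = 0.0887 laser, 0.0600 bur), and after laser without a filter on dim probes (0.0601). Over all genes, 1 gene was called between laser and bur; normexp gave 5, slide as a block 10, an intensity trend 2, and the mean of a gene's probes, only the 2 groups, slide 1 only and slide 2 only 0 each, and leaving out 1 array gave 0 to 1. Leaving out 1 array gave 9185 to 11928 genes called for laser and 9580 to 11870 for bur. With the replicate number as a block, 8, 8 and 0 members were called and 12544, 12915 and 1 genes. Same-numbered arrays deviated together in part (r across genes 0.58, 0.05, 0.53 and 0.40 between laser and bur). Between laser and control r was 0.39, 0.09, 0.14 and 0.11, and between bur and control 0.26, 0.10, 0.10 and 0.20. Laser replicate 2 matched bur replicate 1 best. The labels state no block, so the main fit did not take the numbers as pairs, and pairing is not excluded. Under other scalings the median of all genes lay between 0.03 and 0.10 for laser and -0.01 and 0.15 for bur. Signal over background limits Ltf, Prss57 and Serpina1 among the genes named.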
